A study of Mus musculus with 15 samples.

Results

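The MAP kinase cascade was read from cortical RNA as 57 protein-coding transcripts of 41 genes, out of 10370 transcripts listed for the whole series. Members were all protein-coding rows whose GENCODE M21 gene name begins with Mapk, Map2k, Map3k or Map4k and a digit, with Mapkapk, or with Rps6k. The name rule itself uses no measured value, but it was chosen with earlier results of these data known. Only listed transcripts could enter, and the lowest mean of these was 108 normalized counts. The listed rows of these genes numbered 58, of which a retained-intron transcript of Mapk8ip3 was left out. A single transcript was listed for 32 of the 41 genes. The other 9 genes had several, which together made up 25 of the 57 members.

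RNA came from dissected cortex of male C57BL/6 mice (C57Bl/6J in the methods of the study), labelled 12 weeks of age, at 1 month after either a Sham procedure (7 libraries) or high-frequency head impact (HF-HI, 8 libraries). In the HF-HI model, anesthetized mice receive repeated impacts to the head over consecutive days, and Sham animals are the controls. The question was how these genes differed between HF-HI and Sham cortex at this late time point. The labels number the libraries but do not say that each is a separate animal, so p-values measure the spread between these libraries. In whole tissue, fewer cells of a type and less RNA per cell cannot be told apart.

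MAP kinase pathways relay signals from the cell surface to the nucleus and cytoplasm through kinases that phosphorylate each other in series. A MAP3K, sometimes switched on by a MAP4K, phosphorylates a MAP2K, which phosphorylates a MAP kinase such as ERK, JNK or p38. The MAP kinase then acts on transcription factors and on effector kinases, including the MAPKAP kinases, RSK and MSK, while scaffold proteins hold the kinases of a module together. In cortical neurons ERK signalling follows synaptic activity, and JNK and p38 respond to stress and to axonal injury.

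Cascade transcripts as a whole did not lean to either side at 1 month. At a limma unadjusted p under 0.05, 5 of 57 members were higher in HF-HI and 2 were lower, which is 12.3% of members beside 8.83% of all 10370 transcripts. Over all transcripts 4.94% were called higher and 3.90% lower. No member passed the adjusted threshold of 0.1. The smallest adjusted p among members was 0.287, and 0 of 10370 transcripts passed in the whole table, where the smallest was 0.206. The log2 ratio of mean normalized counts, HF-HI over Sham, was above 0 in 29 members and below 0 in 28, with a median of 0.01 beside -0.00 for all transcripts. It lay within 0.2 of 0 in 42 members and within 0.4 in 55.

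The called members included Mapk9-201 and Mapk6-201, which were lower, and, among those that were higher, Map3k13-201, Mapk9-203, Mapk10-212 and Rps6kl1-201. Of the 7 called members 5 came from the MAP kinases themselves, where 5 of 17 transcripts were called (29.4%, beside 8.83% of all transcripts). No transcript was called among the 5 of the MAP2K tier, the 5 of the MAP4K tier, the 4 RSK and MSK transcripts or the 10 scaffold transcripts. Among genes with several listed transcripts 5 of 25 members were called, and among genes with a single listed transcript 2 of 32. When reads were summed over all listed transcripts of each gene, 3 of 41 genes were called by voom at an unadjusted p under 0.05 (7.32%), beside 9.38% of 7870 genes. The 7870 include 129 transcripts without an annotation entry, each counted as a gene of its own. The 3 called member genes were Mapk10, Map3k13 and Rps6kl1, all higher in HF-HI, and the smallest adjusted p among member genes was 0.414. Across the 41 genes 20 had a voom log2 difference above 0 and 21 below.

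**Figure D1:**
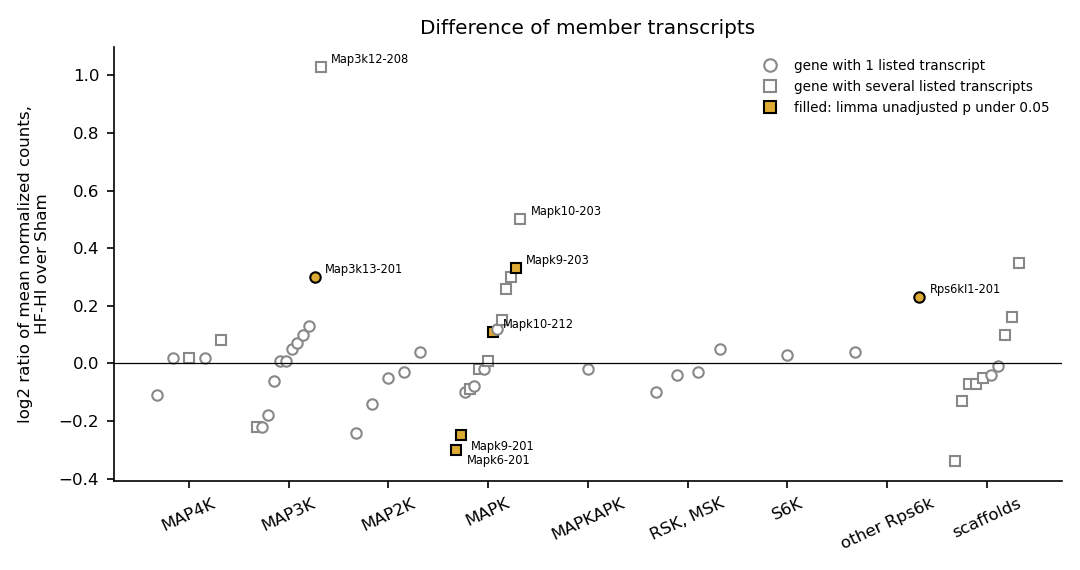
Log2 ratio of mean normalized counts (HF-HI over Sham, 8 and 7 libraries) for member transcripts, by tier. Filled symbols are transcripts with a limma unadjusted p under 0.05, squares are transcripts of genes with several listed transcripts, and the unfilled transcripts lie between -0.34 and 0.35 apart from Map3k12-208 at 1.03 and Mapk10-203 at 0.50.

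Levels are given as normalized counts, which are reads divided by the size factor of the library, and between genes as normalized counts per kilobase of transcript. Summed over its transcripts, the MAPK tier had the highest level per kilobase, at 2416 ± 55.3 in Sham against 2406 ± 111 in HF-HI (mean ± SD, here and throughout, n = 7 and 8). Scaffolds followed with 1552 ± 78.6 and 1522 ± 62.6 per kilobase, and MAP2Ks with 1340.3 ± 54.8 and 1279 ± 68.9. The 12 MAP3K transcripts summed to 975 ± 42.1 in Sham against 973 ± 38.3 in HF-HI per kilobase, and the 5 MAP4K transcripts to 387 ± 26.8 and 383 ± 41.8. For all 57 members the summed level per kilobase was 7369 ± 177 in Sham against 7268 ± 203 in HF-HI. The difference between the groups was smaller than the SD of either group for each of these sums except that of the MAP2Ks, where it lay between the SDs of Sham and HF-HI.

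Single genes spanned a wide range of levels. Map2k1, which encodes the ERK activator MEK1, had 692 ± 31.6 normalized counts per kilobase in Sham, and Mapk8ip1, the JNK scaffold JIP1, had 692 ± 31.2 per kilobase, so these 2 did not differ beyond their spread. Mapk8ip3 (JIP3) followed at 538 ± 22.8 and Mapk9 (JNK2) at 435 ± 12.9 per kilobase. At the low end stood Map3k1, a MAP3K of the JNK and ERK pathways, with 21.5 ± 1.46 per kilobase. Several cascade genes, namely Map2k3, Map2k6, Mapk7, Mapk12, Mapk13, Mapkapk3, Mapkapk5, Rps6ka1, Rps6ka6 and Rps6kb2, had no listed transcript and were not analysed here. The lowest mean of any listed transcript was 108 normalized counts.

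**Figure D2:**
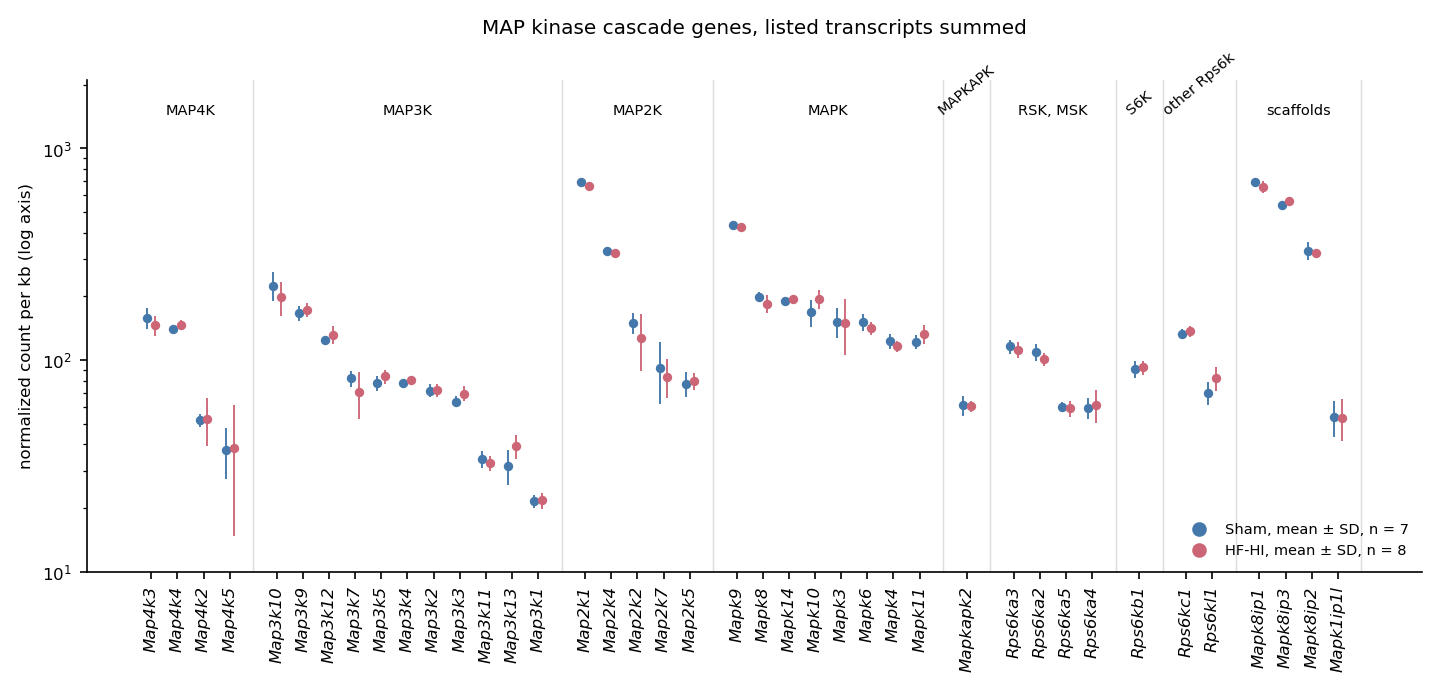
Normalized count per kilobase on a log axis for the cascade genes, listed transcripts summed, by tier (Sham blue, HF-HI red, mean ± SD, n = 7 and 8). Sham and HF-HI means lie close together for most genes, while the genes drawn range from Map3k1 at 21.5 to Map2k1 and Mapk8ip1 at 692 per kilobase in Sham.

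Depth differed between the groups. Reads in the listed transcripts ran from 3496103 to 10582858 per library, the size factor was 1.26 ± 0.237 in Sham against 0.888 ± 0.290 in HF-HI, and a read was worth 0.679 to 1.997 normalized counts. HF-HI replicates 2, 4 and 7 had size factors under 0.8. Neuronal markers were present: all 9 neuronal marker genes were listed, with summed counts of 60295 to 61544 in Sham against 59802 to 65547 in HF-HI, and 2 of their 25 transcripts were called higher. Of the other marker lists, 1 of 11 astrocyte and 1 of 7 microglial transcripts were called lower, and none of 17 oligodendrocyte, 3 endothelial, 5 choroid plexus or 4 blood transcripts was called. Aif1 and the endothelial genes Pecam1, Kdr, Tek and Cdh5 had no listed transcript. Markers of striatal projection neurons summed to 13276 to 19484 in Sham against 10062 to 19044 in HF-HI, with 3 of 19 transcripts called lower. This was 15.8% of that list, with a median log2 ratio of -0.16, and 3 of its 12 listed genes were called lower on summed reads. The astrocyte and microglial calls made up 9.09% and 14.3% of their lists, from 1 transcript each. Over all transcripts 4.94% were called higher and 3.90% lower. Choroid plexus markers ran from 1972 to 11212 and from 2018 to 13832, highest in HF-HI replicate 2. The part of depth or tissue makeup in the results was not tested beyond the covariate fits given beside them.

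MAP4Ks are kinases of the Ste20 family that act upstream of MAP3Ks, mostly towards JNK. None of their 5 transcripts was called. Map4k3-201 had the largest level per kilobase of the tier, 158 in Sham against 146 in HF-HI. Its normalized counts ran from 584 to 798 in Sham (median 627) against 514 to 694 in HF-HI (median 620.1), and 4 HF-HI libraries lay below all Sham libraries (log2 ratio -0.11, limma unadjusted p = 0.167). Map4k4, a kinase linked to neuronal JNK signalling, had 2 listed transcripts whose summed reads were 791 ± 26.8 in Sham against 831 ± 45.0 in HF-HI (voom log2 difference 0.06 ± 0.037 SE, unadjusted p = 0.130). Map4k5-203 varied the most of the tier among HF-HI libraries. It ran from 92.5 to 220.3 normalized counts in Sham against 61.5 to 315 in HF-HI, with 3 HF-HI libraries above every Sham library and 2 below (log2 ratio 0.02).

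MAP3Ks receive most of the diversity of upstream signals, and 1 of 12 transcripts was called. Map3k13-201 encodes the leucine zipper kinase LZK, which with its relative DLK (Map3k12) relays axonal damage to JNK in neurons. The transcript lies at chr16:21891969-21931877 on the plus strand (GRCm38). It ran from 163 to 277 normalized counts in Sham (median 219.5) against 209 to 304 in HF-HI (median 265). Of the 8 HF-HI libraries 7 exceeded the Sham median and 4 exceeded every Sham library, while the lower part of the HF-HI range overlapped Sham. The mean was 213 ± 40.3 in Sham against 262 ± 34.6 in HF-HI (log2 ratio 0.30, limma unadjusted p = 0.0183, adjusted p = 0.476). The call was kept in 25 of 25 alternatives. On summed reads the voom log2 difference was 0.28 ± 0.11 SE (unadjusted p = 0.0228), and this call was lost without Sham replicate 6 (unadjusted p = 0.0576) and without HF-HI replicate 8 (unadjusted p = 0.0571).

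Map3k12, the gene of DLK, had 2 listed transcripts, Map3k12-207 and Map3k12-208, with the same coding length of 888 codons. They differ in their non-coding 5′ exons, at chr15:102516788-102517064 in Map3k12-207 and chr15:102510584-102510700 in Map3k12-208, and in the 3′ end. Map3k12-208 ran from 23.8 to 134 normalized counts in Sham (median 89.5) against 29.3 to 403 in HF-HI (median 164). This was the largest log2 ratio among members, 1.03, and it did not pass the test (limma unadjusted p = 0.0639). Its Sham mean of 89.7 was under 108, the lowest mean of any listed transcript, and its HF-HI mean of 183 was over it. Map3k12-208 may thus be listed only through its HF-HI values, which limits what its ratio, calls and share can show. It was called in 4 of 25 alternatives, which were the replicate block, quantile normalization and the omission of HF-HI replicate 3 or HF-HI replicate 8. The replicate block also leaves out HF-HI replicate 8. With all libraries 4 HF-HI values lay above every Sham value, those of HF-HI replicates 2, 4, 5 and 7, and the rest within the Sham range. Replicates 2, 4 and 7 are the HF-HI libraries with size factors under 0.8. Map3k12-208 was not called with the size factor as a covariate or in libraries with a size factor of at least 0.8. Map3k12-207 had 438 ± 34.2 in Sham against 377 ± 126 in HF-HI (log2 ratio -0.22) and was not called. The sum of both was 527 ± 21.1 in Sham against 559.9 ± 52.4 in HF-HI, a voom log2 difference of 0.08 ± 0.049 SE (unadjusted p = 0.132). Across HF-HI libraries Map3k12-208 made up 5.54% to 77.4% of the reads of the gene, and across Sham libraries 4.48% to 24.6%. The difference in that share had a limma unadjusted p of 0.113 with all libraries (adjusted p = 0.767). Leaving out each library in turn gave unadjusted p-values from 0.0208, without HF-HI replicate 3, to 0.238.

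The other MAP3Ks gave no call. The mixed lineage kinases, which activate JNK through MKK4 and MKK7, had log2 ratios from -0.18 to 0.07 in Map3k9, Map3k10 and Map3k11. Map3k10-201 (MLK2), the MAP3K with the highest level per kilobase at 225 in Sham, had 827 ± 132 normalized counts in Sham against 729 ± 135 in HF-HI (limma unadjusted p = 0.140). Map3k11-201 (MLK3) had 132 ± 12.3 and 127 ± 10.7 (unadjusted p = 0.512). Map3k5-201, the gene of the oxidative stress sensor ASK1, had 425 ± 35.7 in Sham against 455 ± 35.8 in HF-HI normalized counts (unadjusted p = 0.125). Map3k7-202 encodes TAK1, the MAP3K of cytokine receptors. It ran from 401 to 512 in Sham against 172 to 493 in HF-HI normalized counts (unadjusted p = 0.129), and the value of 172 in HF-HI replicate 6 stood apart from the other 7 libraries, at 344 to 493.

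MAP2Ks are the dual specificity kinases that give each pathway its selectivity, and none of their 5 transcripts was called. Map2k1-201 (MEK1) had the highest level of the tier and ran from 1546 to 1765 normalized counts in Sham (median 1713) against 1506 to 1705 in HF-HI (median 1622). Each of the 8 HF-HI values was under the Sham median, 1 of them under every Sham value, and the means of 1686 ± 77.1 and 1624 ± 67.4 differed by less than the SD of Sham (log2 ratio -0.05, limma unadjusted p = 0.138). Map2k2-202 (MEK2), the other ERK activator, had 233 ± 27.5 in Sham against 198 ± 60.1 in HF-HI (unadjusted p = 0.142). The JNK activators were Map2k4-201 (MKK4), with 1216 ± 54.8 and 1190.4 ± 32.3 normalized counts (unadjusted p = 0.342), and Map2k7-206 (MKK7), with 322 ± 105 and 292 ± 60.3 (unadjusted p = 0.630). Map2k5-201 (MEK5), the activator of ERK5, had 178 ± 24.7 and 184 ± 17.0 (unadjusted p = 0.616).

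The JNK genes Mapk8, Mapk9 and Mapk10 held 3 of the 7 called transcripts. They had 7 listed transcripts, so 42.9% were called, beside 8.83% of all transcripts. Of the 3 calls 2 were Mapk9 transcripts, which share the reads of 1 gene and differed in opposite directions. Summed over the JNK transcripts, the level per kilobase was 801 ± 23.8 in Sham against 802 ± 43.1 in HF-HI. JNK kinases phosphorylate c-Jun and cytoskeletal proteins, and Mapk10 (JNK3) is the form mainly found in neurons. JNK genes are known for a choice between alternative exons in the kinase domain and for a splice acceptor that leaves the protein with a short or a long carboxyl terminus. The 4 listed Mapk9 transcripts combine both choices. Mapk9-201 and Mapk9-209 use the downstream exon and Mapk9-203 and Mapk9-210 the upstream exon, while Mapk9-201 and Mapk9-210 have the long end (423 codons) and Mapk9-203 and Mapk9-209 the short end (381 codons). Mapk9-203 also differs at its 5′ end. It starts at chr11:49854213 and has 11 exons, while the other Mapk9 transcripts start at chr11:49846751 or chr11:49846753 and have 12. Which of these features goes with the differences in counts was not tested. The alternative exons lie on the plus strand of GRCm38, the upstream exon at chr11:49873836-49873907 and the downstream exon at chr11:49874264-49874335. Each is 72 bases long, and they are shown because the called Mapk9 transcripts differ in them. Capitals mark the 25 positions at which they differ (65.3% identity), and the sequences are those of the GENCODE M21 transcripts.
Mapk9 upstream alternative exon: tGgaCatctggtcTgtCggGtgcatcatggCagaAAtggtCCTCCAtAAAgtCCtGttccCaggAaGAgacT
Mapk9 downstream alternative exon: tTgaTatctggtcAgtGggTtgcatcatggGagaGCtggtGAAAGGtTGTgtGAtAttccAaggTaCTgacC

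The carboxyl terminus is set by the acceptor of the last exon, which begins at chr11:49883147 in the long form and 5 bases earlier, at chr11:49883142, in the short form. Mapk10, on the minus strand of chromosome 5, has the same arrangement, with the last exon at 102907950 to 102913327 in Mapk10-203 (464 codons) and at 102907948 to 102913332 in Mapk10-212 (422 codons). The runs below cover 18 bases on each side of the junction, 5′ to 3′ in the transcript, and the capitals are the 5 bases that the short form adds. The added bases have the same letters in both genes.
Mapk9 long-terminus junction: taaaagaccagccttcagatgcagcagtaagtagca
Mapk9 short-terminus junction: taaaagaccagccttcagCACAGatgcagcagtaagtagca
Mapk10 long-terminus junction: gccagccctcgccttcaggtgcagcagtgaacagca
Mapk10 short-terminus junction: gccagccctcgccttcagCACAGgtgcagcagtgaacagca

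Mapk9-201, with the downstream exon and the long end, was the member with the smallest p. It ran from 1029.7 to 1269 normalized counts in Sham (median 1091) against 808 to 1083 in HF-HI (median 920.2). The HF-HI values were below those of every Sham library in 7 of 8 cases, and in the remaining case, HF-HI replicate 8, below the Sham median. The mean was 1108 ± 79.4 in Sham against 930.3 ± 91.6 in HF-HI, a log2 ratio of -0.25 (limma unadjusted p = 8.8e-04, adjusted p = 0.287). The unadjusted call was kept in 26 of 26 alternatives, with an adjusted p from 0.231 to 0.925. Depth moved with the groups here too, and with the log2 size factor as a covariate the difference of deposited log2 values was -0.0769 beside -0.119 without it (unadjusted p = 0.0248). In libraries with a size factor of at least 0.8 it was -0.0847 (unadjusted p = 0.0110). Sham replicate 5, at 1269, stood apart from the other Sham libraries (1029.7 to 1125), and without it the unadjusted p was 0.00202.

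Mapk9-203, with the upstream exon and the short end, was higher in HF-HI. Its normalized counts ran from 255 to 449.7 in Sham (median 345) against 325 to 592 in HF-HI (median 444). The groups overlapped, with 7 of 8 HF-HI values over the Sham median and 3 over every Sham value. Means were 360.1 ± 66.5 and 454 ± 88.7 (log2 ratio 0.33, limma unadjusted p = 0.0276, adjusted p = 0.514). No call was made in 6 of 26 alternatives. With the size factor as a covariate the difference of deposited log2 values was 0.0965 beside 0.105 without it (unadjusted p = 0.0960). The mixed transcripts gave no call: Mapk9-209 had 206 ± 51.4 in Sham against 254 ± 135 in HF-HI (unadjusted p = 0.492), and Mapk9-210 had 342 ± 82.5 and 322 ± 139 (unadjusted p = 0.599).

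The whole of Mapk9 differed little. The sum of its 4 transcripts ran from 1972 to 2117 normalized counts in Sham against 1829 to 2060.0 in HF-HI, with means of 2017 ± 60.1 and 1959.8 ± 66.8 (voom log2 difference -0.04 ± 0.027 SE, unadjusted p = 0.193). Within the gene, Mapk9-201 made up 54.9% ± 3.11 of the reads in Sham against 47.5% ± 4.12 in HF-HI, and Mapk9-203 made up 17.9% ± 3.25 and 23.1% ± 4.39. Tested as a log2 ratio to the other listed transcripts of the gene, these shares had limma unadjusted p of 0.00381 and 0.0225, and the latter was 0.0536 without Sham replicate 5. In that fit of 4138 transcripts 6.26% were called, none passed the adjusted threshold, and the adjusted p of Mapk9-201 was 0.530.

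**Figure D3:**
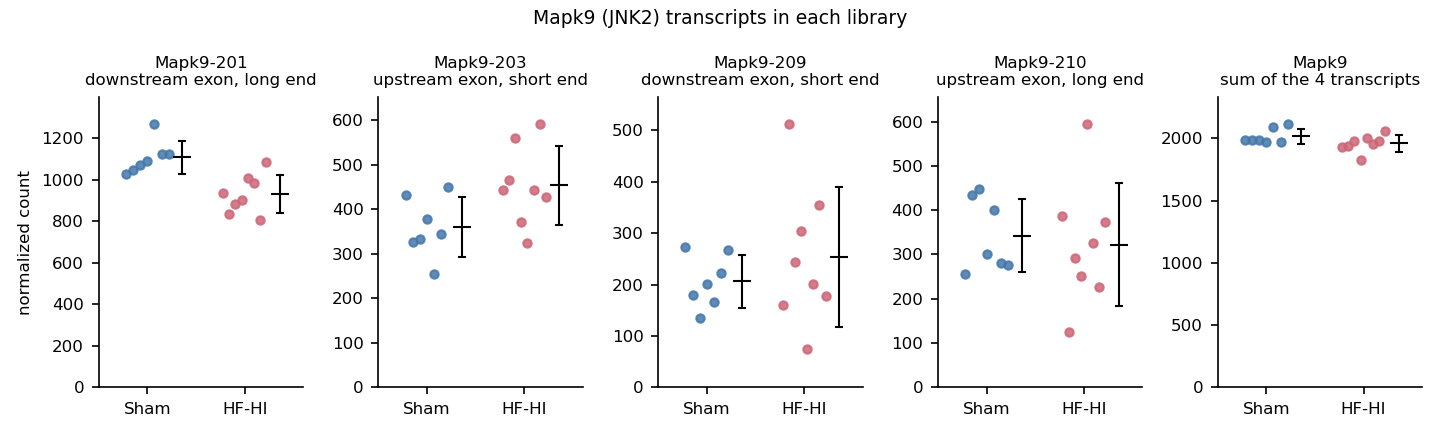
Normalized counts of the 4 Mapk9 transcripts and of their sum in each library (points), with mean ± SD beside them (Sham blue, n = 7, HF-HI red, n = 8). Mapk9-201 lies below every Sham library in 7 of 8 HF-HI libraries, while the sum stays between 1829 and 2117 in all libraries.

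Transcripts were also grouped by splice choice. These shares sum the counts estimated per transcript, and reads across the exons or junctions themselves were not counted. Transcripts with the downstream exon held 60.7% to 68.7% of the reads assigned to Mapk9 in Sham (mean 65.2% ± 3.02) and 54.1% to 69.5% in HF-HI (mean 60.5% ± 5.10). The difference was -4.67 percentage points (exact two-sided permutation p = 0.0558). Those with the long carboxyl terminus held 64.6% to 79.9% in Sham (mean 71.9%) and 49.6% to 80.0% in HF-HI (mean 63.8%), a difference of -8.08 points (exact permutation p = 0.0825). In Mapk10 the transcript with the long end held 6.17% to 30.6% and 12.9% to 35.0%, with means of 20.8% and 26.0% (exact permutation p = 0.283). None of these 3 shares, which were chosen after the transcript values had been seen, passed the threshold of 0.05 with all libraries. Leaving out each library in turn gave exact permutation p-values of 0.0105 to 0.107 for the Mapk9 exon, 0.0163 to 0.156 for the Mapk9 terminus and 0.145 to 0.530 for Mapk10.

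**Figure D4:**
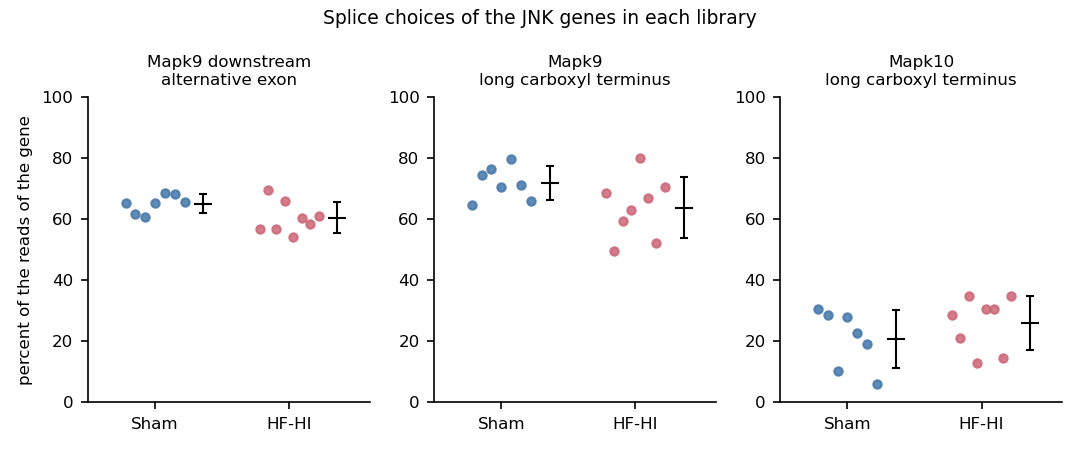
Percent of the reads of the gene that were assigned to transcripts with the downstream Mapk9 exon, the long Mapk9 end and the long Mapk10 end in each library (points), with mean ± SD (Sham blue, n = 7, HF-HI red, n = 8). The groups overlap in all 3 panels, and the means of HF-HI and Sham differ by -4.67 points for the exon and by -8.08 points for the Mapk9 end.

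Mapk10 was the JNK gene whose total was called. Summed reads ran from 975 to 1465 normalized counts in Sham (median 1237) against 1197 to 1577 in HF-HI (median 1402). The ranges overlapped, and the means were 1208 ± 173 and 1394 ± 143 (voom log2 difference 0.22 ± 0.083 SE, unadjusted p = 0.0165, adjusted p = 0.414). With the size factor as a covariate the log2 difference was 0.36 (unadjusted p = 3.9e-04). With a replicate block it was 0.20 (unadjusted p = 0.0703), the only alternative of 20 in which the call was lost. Both transcripts had higher means. Mapk10-212, the short form, ran from 868 to 1054 in Sham against 943 to 1105 in HF-HI normalized counts, with 7 of 8 HF-HI libraries above the Sham median of 946 (log2 ratio 0.11, limma unadjusted p = 0.0305). This transcript call was lost in 9 of 26 alternatives, including the striatal marker score as a covariate (unadjusted p = 0.0773). With the size factor as a covariate the difference of deposited log2 values was 0.0459 beside 0.0528 without it (unadjusted p = 0.118). Mapk10-203 had 263 ± 143 and 372 ± 153 (limma unadjusted p = 0.150). It was called in 2 of 26 alternatives, the size factor as a covariate and the libraries with a size factor of at least 0.8. The smaller unadjusted p of these was 9.1e-04. Mapk8-205, the single listed transcript of JNK1, had 1138 ± 61.7 in Sham against 1058 ± 104 in HF-HI (log2 ratio -0.10, unadjusted p = 0.0886).

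ERK kinases are those that growth factors and synaptic activity switch on through Ras. Mapk3-202, the listed transcript of ERK1, had 274 ± 44.0 normalized counts in Sham against 269.7 ± 79.5 in HF-HI (limma unadjusted p = 0.803).

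The p38 kinases, known for responses to stress and cytokines, gave no call in 4 transcripts. Mapk11-201 (p38β) ran from 272 to 327 normalized counts in Sham against 278 to 365 in HF-HI, with 4 HF-HI libraries above every Sham library (log2 ratio 0.12, limma unadjusted p = 0.115). Mapk14 (p38α) had 3 listed transcripts whose summed reads were 655 ± 31.5 in Sham against 669 ± 37.9 in HF-HI (voom unadjusted p = 0.614). Its transcripts use either of 2 coding exons of 80 bases, at chr17:28740680-28740759 in Mapk14-201 and chr17:28737011-28737090 in Mapk14-202 and Mapk14-203. Mapk14-201 made up 55.6% ± 7.35 of the reads in Sham against 53.9% ± 15.6 in HF-HI (limma unadjusted p = 0.798). Mapk14-203 ran from 115 to 203 normalized counts in Sham against 1.23 to 264 in HF-HI.

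Of the atypical MAP kinases, which lack the usual activation motif, Mapk6 (ERK3) had a called transcript. Mapk6-201 ran from 372 to 492 normalized counts in Sham (median 394) against 252 to 429 in HF-HI (median 326). In 5 of 8 HF-HI libraries the value was below every Sham value, and in 1 it was above the Sham median. Means were 414 ± 48.6 and 336 ± 58.8 (log2 ratio -0.30, limma unadjusted p = 0.0106, adjusted p = 0.422). With the size factor as a covariate the difference of deposited log2 values was -0.0546 beside -0.0937 without it. The call was lost there (unadjusted p = 0.154) and in libraries with a size factor of at least 0.8 (unadjusted p = 0.0651), and kept in the other 24 alternatives. Mapk6-202 encodes the same 720 codons from another non-coding first exon, at chr9:75409202-75409359 in place of chr9:75409863-75410005. It had 199.7 ± 15.4 in Sham against 238 ± 55.9 in HF-HI (log2 ratio 0.26, unadjusted p = 0.0837), with HF-HI replicate 6 at 357 apart from the other HF-HI libraries at 170.1 to 251. Mapk6-201 thus made up 64.8% to 70.3% of Mapk6 reads in Sham and 41.4% to 69.7% in HF-HI (limma unadjusted p = 0.0221, adjusted p = 0.733), and the share of Mapk6-202 is its mirror image. Summed over both, Mapk6 had 614 ± 59.2 and 575 ± 39.7 (voom log2 difference -0.09, unadjusted p = 0.169). Mapk4-201 (ERK4), with 565 ± 46.2 and 534 ± 33.6, gave no call (unadjusted p = 0.152).

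**Figure D5:**
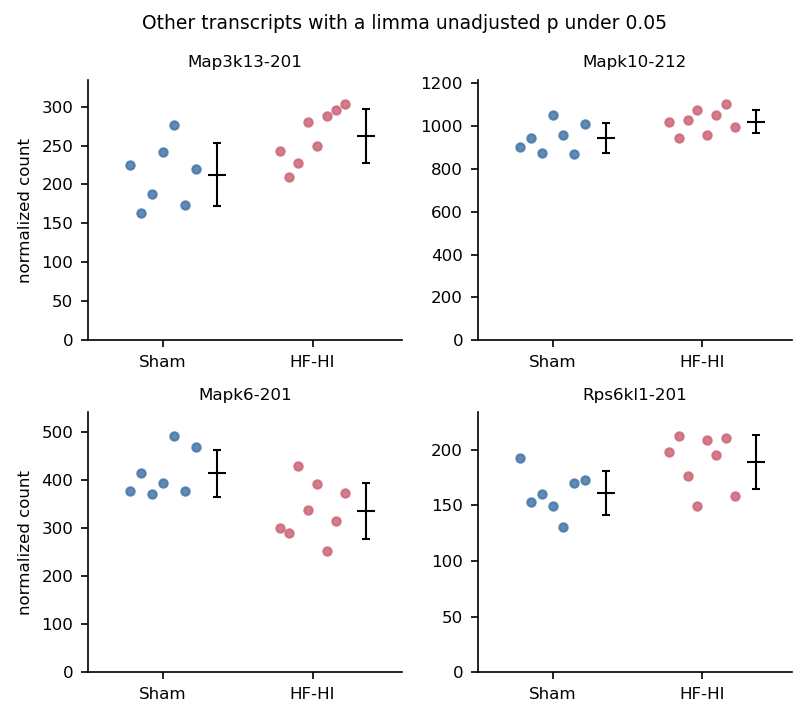
Normalized counts in each library (points) of 4 called transcripts outside Mapk9, with mean ± SD beside them (Sham blue, n = 7, HF-HI red, n = 8). Every pair of groups overlaps, and Mapk6-201 alone among the 4 is lower in HF-HI.

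No transcript of the MAPKAPK, RSK and MSK or S6K tiers was called. RSK and MSK kinases, encoded by the Rps6ka genes, carry ERK and p38 signals to CREB and to chromatin. Rps6ka3-201 (RSK2), the highest of them at 116 normalized counts per kilobase in Sham, had 837 ± 64.5 normalized counts in Sham against 812 ± 67.9 in HF-HI (limma unadjusted p = 0.469). Rps6ka2-201 (RSK3) had 587 ± 53.5 and 548 ± 40.5 (unadjusted p = 0.126). The MSK transcripts, Rps6ka4-202 (MSK2) and Rps6ka5-201 (MSK1), had 184 ± 20.7 and 265 ± 13.4 normalized counts in Sham, and 190.5 ± 34.4 and 260.1 ± 21.9 in HF-HI. Mapkapk2-201, the gene of the p38 effector MK2, had 175 ± 18.7 in Sham against 172 ± 11.0 in HF-HI (unadjusted p = 0.813). Rps6kb1-207, the gene of the S6 kinase that mTOR rather than a MAP kinase activates, had 501 ± 47.0 and 510.2 ± 38.1 (unadjusted p = 0.667).

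Rps6kl1-201, a kinase-like gene that shares the family name, was the called transcript among the other Rps6k genes. It ran from 130.1 to 192 normalized counts in Sham (median 160.2) against 149.8 to 212 in HF-HI (median 197). Values of 5 HF-HI libraries exceeded every Sham value, and the other 3 fell within the Sham range. The mean was 161 ± 19.8 in Sham against 189 ± 24.4 in HF-HI (log2 ratio 0.23, limma unadjusted p = 0.0372, adjusted p = 0.539). This was the least stable of the 7 calls. Its call was lost in 11 of 25 alternatives, among them the omission of any of 9 single libraries. It was also lost with the size factor as a covariate (unadjusted p = 0.0884), where the difference of deposited log2 values was 0.0490 beside 0.0487 without it. Its relative Rps6kc1-201, the higher of these genes at 133 per kilobase in Sham, had 532 ± 28.1 and 546 ± 34.0 normalized counts (unadjusted p = 0.430).

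The JNK-interacting proteins that share the Mapk prefix bind JNK and its activators, and some of them link JNK to kinesin motors in axons. None of the 10 scaffold transcripts was called. Mapk8ip1-201 (JIP1) ran from 1764 to 1941 normalized counts in Sham (median 1836) against 1669.5 to 1925 in HF-HI (median 1708). For 5 of 8 HF-HI libraries the value was below every Sham value, and the means were 1837 ± 60.1 and 1752 ± 95.0 (log2 ratio -0.07, limma unadjusted p = 0.0686). Mapk8ip2-201 (JIP2) had 1829 ± 177 and 1777 ± 85.6 (unadjusted p = 0.494). Mapk1ip1l-202, a proline-rich protein named for binding a MAP kinase, had 244 ± 46.9 and 242 ± 54.6 (unadjusted p = 0.906).

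Mapk8ip3 (JIP3) had the most listed transcripts of any member gene, 6 of them protein-coding. These differ in small coding exons and in their first and last exons, and encode 1300 to 1337 codons. The log2 ratios of the 6 ran from -0.34 in Mapk8ip3-221 to 0.35 in Mapk8ip3-202, with unadjusted p of 0.283 and 0.146. Mapk8ip3-201, the largest, ran from 560.2 to 1639 normalized counts in Sham against 514 to 1906 in HF-HI, and all but 2 of the HF-HI values lay within the Sham range. Summed over all its listed transcripts, the gene ran only from 2624 to 2968 in Sham against 2732 to 3011 in HF-HI (voom log2 difference 0.05 ± 0.032 SE, unadjusted p = 0.166). The retained-intron transcript left out of the members, Mapk8ip3-210, had 179 ± 31.4 in Sham against 219 ± 36.5 in HF-HI (log2 ratio 0.30, limma unadjusted p = 0.0301, adjusted p = 0.525). It was called in 17 of 25 alternatives, the replicate block and the size factor as a covariate not among them.

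The spread between libraries of a group differed between members of genes with a single listed transcript and of genes with several. The median coefficient of variation was 9.06% in Sham against 8.66% in HF-HI over the 32 members of genes with a single listed transcript. Over the 25 members of genes with several, it was 24.1% and 33.9%. The sums of those 9 genes had 4.59% and 5.66%. Transcripts of a gene share reads, which the counting program divides among them, and the part of that division, or of the higher counts of the sums, in the spread was not tested.

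Genes that act on the cascade from outside the name rule were read from the same fit. In the Ras and Raf layer 20 of 23 genes were listed, with 30 transcripts, of which 4 were called higher and 1 lower (16.7% beside 8.83% of all transcripts, median log2 ratio 0.01). Sos1, the exchange factor that loads Ras with GTP, had 677 ± 38.1 normalized counts in Sham against 744 ± 41.6 in HF-HI (log2 ratio 0.14, limma unadjusted p = 0.00765, adjusted p = 0.404). Nras had 438 ± 22.9 and 403 ± 22.8 (log2 ratio -0.12, unadjusted p = 0.0197). On summed reads Sos1 (unadjusted p = 0.00472) and Nras (unadjusted p = 0.0223) were the 2 genes of the layer that were called. A transcript of Rasgrf2 was also called, while its summed reads gave a voom unadjusted p of 0.0749. The transcript calls of Nras and Rasgrf2 were lost with the size factor as a covariate. The larger transcript of Braf, the main neuronal Raf kinase, was not called (2183 normalized counts in Sham, unadjusted p = 0.712).

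None of 14 transcripts of the 8 Ras GTPase activating proteins was called, and none of 5 of the Sprouty family. On summed reads 1 gene of the first list, Dab2ip, was called higher (voom log2 difference 0.21, unadjusted p = 0.00991). The dual specificity phosphatases remove phosphate from MAP kinases, and several of them are transcribed in response to the same pathways. Of the 10 in the list 6 were listed, each with a single transcript, and 3 were called higher and 0 lower (median log2 ratio 0.17), beside 4.94% of all transcripts called higher. Dusp5, a nuclear phosphatase of ERK, had 103 ± 18.1 normalized counts in Sham against 144 ± 14.6 in HF-HI (log2 ratio 0.49, limma unadjusted p = 4.7e-04, adjusted p = 0.227). Its Sham mean was under 108, the lowest mean of any listed transcript, and its HF-HI mean was over it. Dusp5 may thus be listed only through its HF-HI values, which limits what its call and the count of phosphatases called higher can show. Dusp1, which acts on p38 and JNK, had 198 ± 62.5 and 280.5 ± 57.6 (log2 ratio 0.50, unadjusted p = 0.0134). Dusp6, the cytoplasmic phosphatase of ERK, had 664 ± 126 and 815 ± 92.9 (log2 ratio 0.30, unadjusted p = 0.0135). Dusp7, Dusp8 and Dusp16 had log2 ratios of -0.02, 0.04 and -0.04, with unadjusted p of 0.662, 0.401 and 0.606. None of these passed the adjusted threshold, and the adjusted p of Dusp1 and Dusp6 was 0.448 for both.

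Among nuclear targets of MAP kinases 2 of 21 transcripts were called higher and 2 lower (19.0%, beside 8.83% of all transcripts). Mef2a, a transcription factor that p38 phosphorylates, had 1453 ± 41.8 in Sham against 1324 ± 161 in HF-HI (log2 ratio -0.13, unadjusted p = 0.0497). The other 3 were Fos, higher, and a pair of Creb1 transcripts called in opposite directions, whose summed reads gave a voom log2 difference of -0.05 (unadjusted p = 0.537). Of 18 transcripts of scaffolds and adaptors outside the rule 1 was called (5.56%, under the share of all transcripts). It was Tab2, the adaptor of TAK1, with 435 ± 53.5 and 487 ± 25.9 (log2 ratio 0.16, unadjusted p = 0.0257). Of 15 transcripts of upstream kinases outside the rule 1 was called (6.67%, also under that share). It was a Pak3 transcript with 493 ± 74.7 and 411 ± 74.7 (log2 ratio -0.26, unadjusted p = 0.0461). With the size factor as a covariate the calls of Mef2a, both Creb1 transcripts and Pak3 were lost.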

How the data were processed

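Cortical total RNA of 7 Sham and 8 HF-HI libraries was sequenced. Per the study's methods, the authors aligned reads to mm10 with STAR, estimated counts per transcript with eXpress and normalized with DESeq2. The values the authors deposited are variance-stabilized and on a log2 scale, for 10370 transcripts and all 15 libraries, and 0 columns were left unused.

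The transformation was inverted, and 100.0% of the values came back as whole reads within 0.1 reads. Reads covered listed transcripts only. Normalized counts and log2 ratios of their means describe size, since the deposited scale compresses low counts. Transcripts were matched to GENCODE M21 (GRCm38), 10241 with an entry and 129 without. The main test used limma 3.58.1 in R 4.3.3, applied to the deposited values with a trended eBayes prior and group as term, two-sided, with Benjamini-Hochberg adjustment over all transcripts at 0.1. Unadjusted calls used p under 0.05. Genes were tested with limma's voom on summed reads, scaled by the trimmed mean of M values (TMM). Within-gene shares were tested in limma as the log2 ratio of a transcript to the other listed transcripts of its gene, adding 0.5 reads. The code was tested on simulated counts.

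The members, gene lists and tests were chosen with earlier results of these data known. Except as stated at the end, named with values were the called members, the classical ERK, JNK, p38 and ERK5 modules with their upstream kinases, effectors and scaffolds, the highest transcript per kilobase of each tier, and the 3 genes whose transcripts diverged most (Map3k12, Mapk8ip3 and Mapk9). Other genes named in the text, from the pathway and marker lists, were picked after their values were seen. Alternatives changed the scale, pseudocount, prior, scaling, filter, block, covariates and test, and left out each library. The share tests, the splice choices and the fit on libraries with a size factor of at least 0.8 were added after seeing the data. No count model was fitted. Results on some items that enter the counts are not reported here and not drawn.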

Additional observations from a re-analysis of the deposited data

Results flagged for a closer look

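In 132 groups of 7 or 8 libraries, 5 single libraries stood apart from the rest of their group by Dixon's criterion at the 95% level. Chance flags about 1 in 20 groups. Mapk9-201 was at 1269 normalized counts in Sham replicate 5, with the other Sham libraries at 1029.7 to 1125, and without it the limma unadjusted p of that transcript was 0.00202. Map3k7-202 was at 172 in HF-HI replicate 6 (others 344 to 493). Mapk6-202 was at 357 in the same library, HF-HI replicate 6 (others 170.1 to 251). Map3k1-201 was at 130.4 in Sham replicate 1 (others 149 to 163). Mapk8ip3-221 was at 342 in HF-HI replicate 3 (others 3.69 to 144).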

How the results depend on the processing

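Over the 10 called member transcripts and genes and their alternatives, no result changed direction, 203 of 239 kept their call and 36 lost it. The 10 are not separate results. Map3k13 and Rps6kl1 have 1 listed transcript each, so transcript and gene rest on the same reads, and Mapk10-212 is part of the Mapk10 sum. The count of 7 transcripts called at an unadjusted p ran from 5 to 10 when each library was left out, lowest when Sham replicate 2, Sham replicate 3 or HF-HI replicate 7 was left out and highest when HF-HI replicate 3 was. It was 4 of 33 with a mean of at least 300 normalized counts, where fewer transcripts were tested, 5 with the size factor as a covariate, and 8 with quantile normalization or the striatal score. The count at an adjusted p was 0 in every alternative. The 3 genes called on summed reads ranged from 3 to 5 when a library was left out, and were 5 without HF-HI replicate 6 or 7, the cause of which was not tested. Equal replicate numbers did not mark pairs: the correlations of their deviations ran from -0.138 to 0.0905, and 1 of 7 Sham libraries correlated best with its own number. A replicate block, which leaves out HF-HI replicate 8, gave 8 transcripts and 3 genes. A read was worth 0.679 to 1.997 normalized counts, the smallest step a value could take at these depths.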
